A study of Homo sapiens with 4 samples.

Results

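The genes described here belong to the integrated stress response and to amino acid supply: 37 genes of the ATF4 pathway, of serine, asparagine and proline synthesis, and of amino acid transport. They were taken from a list of symbols, and all 37 were found among the 60671 gene IDs of the count table and passed the filter on low counts, which left 16309 genes in all. In GENCODE 29, 12 of the 37 share exon bases with another annotated gene, 6 with a coding one. In the integrated stress response, kinases that sense misfolded protein or a shortage of amino acids phosphorylate the translation factor eIF2, so that most protein synthesis slows while the mRNA of the transcription factor ATF4 is translated more. ATF4 then acts with C/EBP family partners on genes for amino acid enzymes and transporters, and also on genes that feed back on the response. MYCN-driven neuroblastoma cells are known for a high demand for amino acids and for strong expression of the serine synthesis enzymes.

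RNA was measured by paired-end sequencing in the MYCN-amplified line SK-N-BE(2), established from a human neuroblastoma, carrying either a scrambled control hairpin (shNC, 2 libraries) or a hairpin against METTL14 (shMETTL14, 2 libraries). METTL14 is a subunit of the complex that places N6-methyladenosine (m6A) on RNA, and the comparison asks which transcripts differ when it is depleted. According to the study's methods, hairpins were delivered in the pLKO.1 lentiviral vector and both groups were selected with puromycin. The labels do not say which METTL14 hairpin was used, and nothing in them says that the libraries of a group came from separate cultures, so p-values measure the spread between these libraries, which may be technical.

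The 4 libraries held between 18925786 and 19886214 counts in genes, and levels are given as CPM, which are counts relative to the library total after scaling by the edgeR normalization factors. METTL14 had 37.8 and 39.4 CPM in shNC and 15.5 and 16.7 CPM in shMETTL14, and on the log2 scale the fitted change was -1.26, SE 0.0832, adjusted p = 3.6e-11, so the targeted gene was lower in both libraries that carry its hairpin. The 12 adrenergic neuroblastoma markers were all detected at a summed 6317 to 6482 CPM in shNC and 6228 to 6281 CPM in shMETTL14, with 2 called higher and 8 lower. The 9 mesenchymal or fibroblast markers summed to 2616 to 2684 CPM and 2644 to 2697 CPM, with 2 of the 8 tested called higher and 5 lower, and PRRX1 had at most 3 counts in any library. The 6 Schwann cell markers summed to 4.86 to 5.82 CPM and 3.83 to 4.26 CPM, with 1 of the 2 tested called lower and SOX10 at 0 in every library, and the leukocyte marker PTPRC had 1.71 to 2.09 CPM and 1.48 to 1.56 CPM. The part of these marker shifts in the results below was not tested.

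More of the 37 genes were lower than higher in shMETTL14. A gene was called when edgeR's quasi-likelihood test gave an adjusted p under 0.05 (Benjamini-Hochberg over all genes tested). By this rule 22 of the 37 genes changed, or 59.5%, against 52.5% of all genes tested. Lower calls numbered 16, or 43.2%, where the share over all genes was 25.3%. Higher calls numbered 6, or 16.2%, where it was 27.2%. Under upper quartile scaling, which moved the median of all genes by -0.07 on the log2 scale, the split of the 37 genes became 24 lower and 5 higher, and the share of higher calls among all called genes fell from 51.8% to 41.7%. The calls added by this scaling were JDP2, VLDLR, PSAT1, SHMT2, MTHFD2, SLC3A2, SLC1A4 and XPOT, all lower, and TRIB3 was lost. Scaling by library size alone added 6 of these 8 genes, without SHMT2 and MTHFD2.

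The changes were small. The median log2 fold change of the 37 genes was -0.14, beside -0.00095 over all genes tested, and 28 of them lay below 0 and 9 above it, where 50.1% of all genes lay below 0. Of the 22 called genes, 16 had an absolute log2 fold change under 0.5, and their median absolute log2 fold change was 0.38, beside 0.44 for all called genes. At least 2-fold change was found in 3 genes, NUPR1, ASNS and GDF15, which is 8.11% of the 37 against 8.79% of all genes. Without shMETTL14 replicate 2 the log2 fold changes of these genes were -1.52, -0.93 and 1.04 in the same order, so ASNS fell short of 2-fold. The libraries of the 2 groups did not overlap for 32 genes, or 86.5%, where the share over all genes was 75.5%. The summed level of the 37 genes was 5781 and 5837 CPM in shNC and 5276 and 5246 CPM in shMETTL14. In RNA from a whole culture, fewer cells that express a gene and less of its RNA per cell cannot be told apart.

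**Figure D1:**
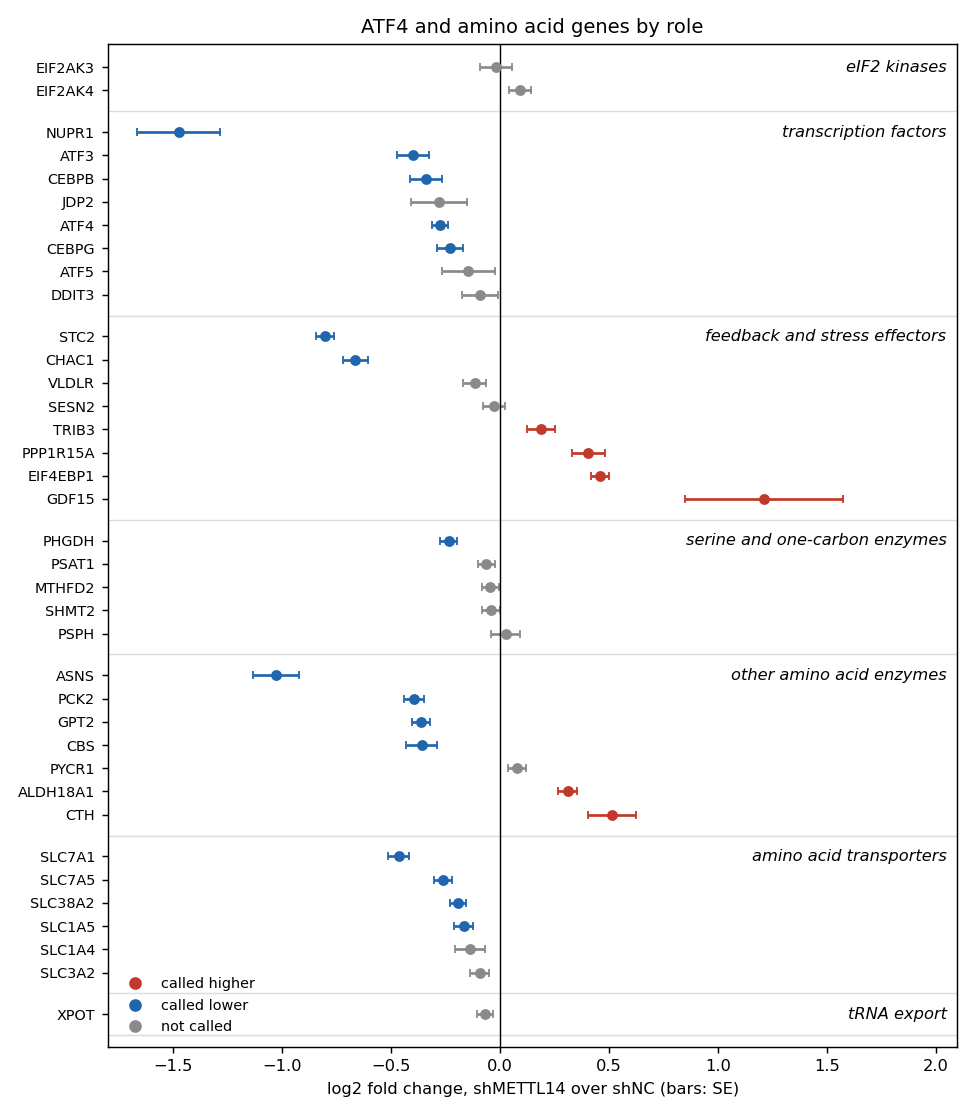
Log2 fold change of shMETTL14 over shNC (horizontal axis) for the 37 genes grouped by role, with bars for the SE of the edgeR fit and colour for the call. The transcription factors and the amino acid transporters hold no gene called higher, whereas the feedback and stress effectors hold 4 higher and 2 lower. Of all genes tested, 27.2% were called higher and 25.3% lower.

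Levels per length, as reads per kilobase of annotated exon (RPKM, which is CPM divided by length), spread over several orders of magnitude. The length merges the exons of every annotated transcript of a gene, so the order of genes depends in part on the annotation. PHGDH and PSAT1, with a mean of 345 and 341 CPM in shNC, had 37.5 and 156 RPKM over 9217 and 2188 bases. ATF4 itself stood highest with 308 RPKM in shNC and 254 RPKM in shMETTL14, and was followed in shNC by EIF4EBP1 with 187 RPKM in shNC and 258 RPKM in shMETTL14 and PSAT1 with 156 RPKM in shNC and 149 RPKM in shMETTL14. GDF15 stood lowest with 0.393 RPKM in shNC and 0.914 RPKM in shMETTL14, and NUPR1 was the next lowest with 1.43 RPKM in shNC and 0.513 RPKM in shMETTL14. In the order of levels, EIF4EBP1 lay below ATF4 in shNC and above it in shMETTL14, a difference between genes that was not tested.

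**Figure D2:**
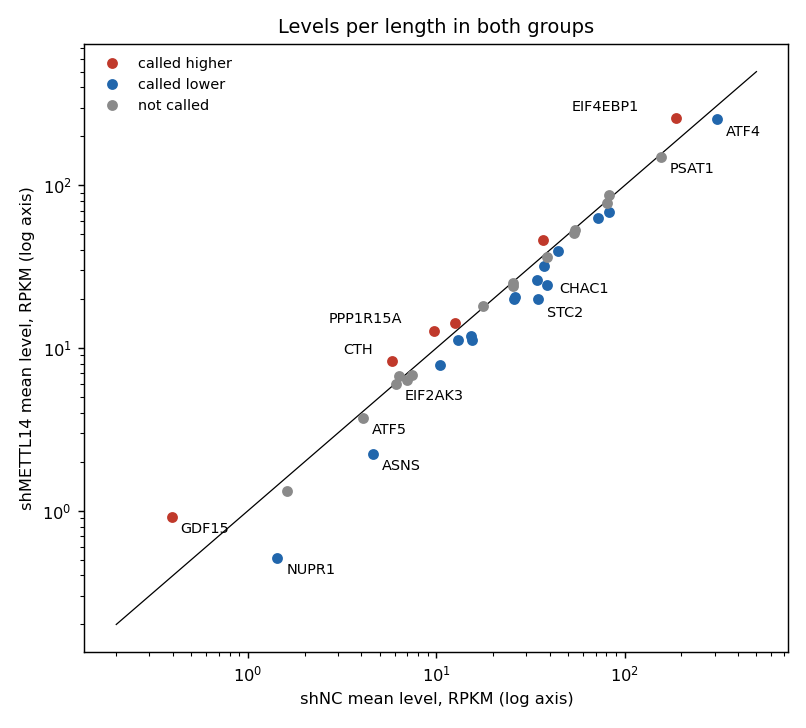
Mean level of each of the 37 genes in shNC (horizontal axis) and in shMETTL14 (vertical axis), both in RPKM on log axes, with the line of equal levels and colour for the call. Points lie close to the line over the whole range, and the clearest departures are NUPR1 and ASNS below it and GDF15 above it.

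The promoters of some of these genes carry the site through which ATF4 and C/EBP proteins are known to act. RefSeq promoter windows on GRCh38.p14, from 250 bases before to 50 bases after a transcription start, matched 31 of the 37 genes with 50 windows. No window was matched for EIF4EBP1, GPT2, NUPR1, PSPH, PYCR1 and SHMT2. Both strands were searched for the C/EBP-ATF response element, TGATGNAAN, where N is any base. It was present in 9 of the 31 genes, or 29.03%, against 4.45% of 27305 genes with a window, and in 9 of the 50 windows against 3.61% of 35116 windows. The list holds genes that are known as ATF4 targets, so this share is a description and not independent evidence. Of the 9 genes, ATF3, ASNS, SLC7A1, CHAC1, CEBPG and SLC1A5 were called lower, and JDP2, SLC1A4 and SLC3A2 were not called. Of the 31 genes with a window, 14 were called lower, 5 higher and 12 were not called. Among all genes tested, 25.3% were called lower and 27.2% higher. Whether the calls go with the element was not tested. The CREB site TGACGTCA was found in 1 of the 31 genes, PPP1R15A, at 58 bases before the start, and in 2.25% of all genes, and the ER stress element (CCAAT and CCACG with 9 bases between them) was found in 0 of the 31 and in 0.0916% of all genes. These motifs do not overlap in the windows of the 37 genes, and a match is a run of letters and not a measured binding site.

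The stretches below show the element, in capitals, in the 5 genes called lower that carry it before the start. JDP2, which was not called, is shown as well. Each stretch ends at the transcription start of the RefSeq window that holds the element. A gene can have several annotated starts, and which are used in these cells was not tested. For every stretch shown, the RefSeq start lies inside the annotated gene. The gene's 5′ end is at 212565334 for ATF3, 40952962 for CHAC1 and 46788594 for SLC1A5. For ASNS, CEBPG and JDP2 it is at 97872542, 33373330 and 75427716. All stretches but that of ATF3 lie wholly inside the gene, so their elements lie after its annotated 5′ end. The distances given here thus hold only for the RefSeq starts used. The stretches are shown 5′ to 3′ along the gene's strand. The element and its distance from that start can thus be read beside the changes in RNA given further on. The element begins 210 bases before the start in CHAC1, 191 in ATF3, 97 in SLC1A5, 68 in ASNS, 42 in CEBPG and 16 in JDP2. In CHAC1 it lies on the opposite strand and is therefore read as its reverse complement.
ATF3, chr1:212565157-212565406, plus strand: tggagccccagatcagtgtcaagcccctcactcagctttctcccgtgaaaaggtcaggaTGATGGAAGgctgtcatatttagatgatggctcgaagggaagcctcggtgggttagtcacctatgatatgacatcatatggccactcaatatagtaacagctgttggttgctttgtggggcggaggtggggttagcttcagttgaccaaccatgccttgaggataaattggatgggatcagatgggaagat
CHAC1, chr15:40953221-40953470, plus strand: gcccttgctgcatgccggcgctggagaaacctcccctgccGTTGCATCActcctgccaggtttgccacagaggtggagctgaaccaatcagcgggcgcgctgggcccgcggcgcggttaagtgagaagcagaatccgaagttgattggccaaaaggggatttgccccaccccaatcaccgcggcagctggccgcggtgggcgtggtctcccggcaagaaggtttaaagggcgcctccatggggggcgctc
SLC1A5, chr19:46784815-46784971, minus strand: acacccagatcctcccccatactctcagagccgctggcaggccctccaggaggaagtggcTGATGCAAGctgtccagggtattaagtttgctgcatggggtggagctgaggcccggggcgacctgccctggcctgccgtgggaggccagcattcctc
ASNS, chr7:97872409-97872536, minus strand: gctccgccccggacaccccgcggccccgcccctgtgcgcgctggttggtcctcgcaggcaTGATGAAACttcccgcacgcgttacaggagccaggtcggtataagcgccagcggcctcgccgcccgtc
CEBPG, chr19:33374011-33374112, plus strand: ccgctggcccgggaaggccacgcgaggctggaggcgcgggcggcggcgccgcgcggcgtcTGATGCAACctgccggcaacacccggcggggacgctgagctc
JDP2, chr14:75427946-75428021, plus strand: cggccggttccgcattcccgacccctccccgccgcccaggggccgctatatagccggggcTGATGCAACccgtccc

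Of the kinases that start the response, EIF2AK3 and EIF2AK4 showed no called change, whereas EIF2AK2, given further on, was called higher. EIF2AK3, also known as PERK, which senses misfolded protein in the endoplasmic reticulum, had 33.7 and 32.7 CPM in shNC and 33.3 and 32.4 CPM in shMETTL14, and the groups overlapped (log2 fold change -0.02, SE 0.0738, adjusted p = 0.87). EIF2AK3 shares 14.4% of its exon bases with AC104134.1 on the other strand, the larger of its overlaps. EIF2AK4, also known as GCN2, which senses uncharged tRNA, had 76.3 and 74.9 CPM in shNC and 83.1 and 78.2 CPM in shMETTL14. Its groups did not overlap, and the log2 fold change was 0.09, SE 0.051, adjusted p = 0.13.

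Of the 8 transcription factors, 5 (62.5%) fell, 0 rose and 3 were not called, where 25.3% of all genes were called lower and 27.2% higher. Their median log2 fold change was -0.28. ATF4 (ENSG00000128272, chr22:39519695-39522685, plus strand in GENCODE 29 on GRCh38), the central factor of the response, had 763 and 786 CPM in shNC and 650.2 and 628 CPM in shMETTL14. Both knockdown libraries lay below both controls, at 82.6% of the control mean, and the log2 fold change was -0.28, SE 0.0374, adjusted p = 2.1e-06. NUPR1 (ENSG00000176046, chr16:28532708-28539174, minus strand), a small stress-induced nuclear protein, had 6.82 and 9.40 CPM in shNC and 2.81 and 3.01 CPM in shMETTL14. It showed the deepest fall of all 37 genes, to 35.9% of the control mean (log2 fold change -1.47, SE 0.191, adjusted p = 1.2e-06), although the shNC libraries themselves differed, with 136 and 180 counts, against 55 and 58 counts in shMETTL14.

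ATF3, a stress-induced bZIP factor whose upstream element is shown above, had 40.9 and 43.2 CPM in shNC and 30.9 and 32.9 CPM in shMETTL14, so both knockdown libraries were lower (log2 fold change -0.40, SE 0.0723, adjusted p = 8.2e-05). CEBPB, a C/EBP factor that pairs with ATF4, had 54.7 and 46.9 CPM in shNC and 38.6 and 41.8 CPM in shMETTL14. Its groups did not overlap (log2 fold change -0.34, SE 0.0737, adjusted p = 0.00052), and 11.8% of its exon bases are shared with an antisense gene, CEBPB-AS1. CEBPG, another partner of ATF4, had 58.1 and 57.2 CPM in shNC and 48.4 and 50.04 CPM in shMETTL14, and its log2 fold change was -0.23, SE 0.0585, adjusted p = 0.0023. The C/EBP partners that are no members, CEBPA and CEBPD, were at or under 0.940 CPM in every library, and CEBPA was not tested.

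The other factors were not called. DDIT3, also known as CHOP, the factor linked to cell death under long stress, had 30.7 and 36.1 CPM in shNC and 31.1 and 31.6 CPM in shMETTL14. Its groups overlapped (log2 fold change -0.09, SE 0.0824, adjusted p = 0.37), and 27.2% of its exon bases are shared with MARS, the largest of its overlaps. ATF5, a bZIP factor of mitochondrial stress, had 12.99 and 11.2 CPM in shNC and 11.5 and 10.3 CPM in shMETTL14, with overlapping groups as well (log2 fold change -0.14, SE 0.12, adjusted p = 0.33). ATF5 shares 21.2% of its exon bases with NUP62 on the other strand, the largest of its overlaps. JDP2, a bZIP repressor, had 9.43 and 10.7 CPM in shNC and 8.17 and 8.42 CPM in shMETTL14. Its knockdown libraries were lower than its controls, but the test did not call it (log2 fold change -0.28, SE 0.129, adjusted p = 0.075), and 3 alternatives did call it: scaling by the upper quartile, scaling by library size alone, and leaving out shNC replicate 1.

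The feedback and stress effectors split between the directions, with 4 genes (50%) higher, 2 (25%) lower and 2 not called. The shares over all genes were 27.2% higher and 25.3% lower. STC2 (ENSG00000113739, chr5:173314713-173329503, minus strand), a secreted glycoprotein induced by endoplasmic reticulum stress, had 215 and 211 CPM in shNC and 122 and 122 CPM in shMETTL14. The knockdown libraries lay at 57.4% of the control mean (log2 fold change -0.80, SE 0.0418, adjusted p = 7.9e-13), and this was the smallest adjusted p of the 37 genes. CHAC1 (ENSG00000128965, chr15:40952962-40956519, plus strand), an enzyme that degrades glutathione, had 76.2 and 82.2 CPM in shNC and 48.8 and 51.2 CPM in shMETTL14. It fell in both libraries to 63.1% of the control mean (log2 fold change -0.66, SE 0.0571, adjusted p = 2.6e-09).

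EIF4EBP1, a repressor of cap-dependent translation that binds eIF4E, rose. It had 195 and 207 CPM in shNC and 277 and 276 CPM in shMETTL14, which is 138% of the control mean (log2 fold change 0.46, SE 0.0412, adjusted p = 4.8e-09). PPP1R15A, also known as GADD34, which recruits a phosphatase to eIF2 and so ends the response, had 30.8 and 28.98 CPM in shNC and 41.1 and 38.1 CPM in shMETTL14. Both knockdown libraries were above both controls (log2 fold change 0.41, SE 0.0753, adjusted p = 0.0001). TRIB3, a pseudokinase that binds ATF4 and DDIT3 and dampens their activity, had 42.3 and 43.97 CPM in shNC and 50.2 and 48.1 CPM in shMETTL14. The groups did not overlap (log2 fold change 0.19, SE 0.0636, adjusted p = 0.016), yet the call was lost in DESeq2 (adjusted p = 0.12), under upper quartile scaling (0.12), when libraries were scaled by size alone (0.063), without shNC replicate 1 (0.094) and without shMETTL14 replicate 1 (0.13).

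GDF15, a secreted cytokine of the TGF-beta family that rises under many kinds of stress, had 14 and 18 counts in shNC and 33 and 41 counts in shMETTL14. These equal 0.702 and 0.940 CPM in shNC and 1.69 and 2.13 CPM in shMETTL14, so the groups did not overlap, but the counts were few (log2 fold change 1.21, SE 0.363, adjusted p = 0.0078). DESeq2 did not call it (adjusted p = 0.058), nor did edgeR without shNC replicate 1 (0.071) or without shMETTL14 replicate 2 (0.083). SESN2, a sestrin that restrains mTORC1 when leucine is short, had 87.4 and 89.2 CPM in shNC and 90.04 and 83.2 CPM in shMETTL14, and the groups overlapped (log2 fold change -0.03, SE 0.0505, adjusted p = 0.67). VLDLR, a lipoprotein receptor induced by ATF4, had 70.4 and 68.5 CPM in shNC and 63.9 and 64.4 CPM in shMETTL14. It lay lower in both knockdown libraries without being called (log2 fold change -0.12, SE 0.0524, adjusted p = 0.069), and was called under both scalings named above and when at least 10 counts were required in every library (adjusted p = 0.032).

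In serine synthesis and mitochondrial one-carbon metabolism, 1 of 5 genes (20%) fell, 0 rose and 4 were not called. Over all genes, 25.3% were called lower and 27.2% higher. PHGDH, the enzyme of the entry step of serine synthesis, had 341 and 350.1 CPM in shNC and 293 and 294 CPM in shMETTL14. It fell to 85.0% of the control mean, with groups that did not overlap (log2 fold change -0.23, SE 0.0387, adjusted p = 2.7e-05). PSAT1, the transaminase of the next step, had 336 and 345 CPM in shNC and 322 and 331 CPM in shMETTL14 (log2 fold change -0.06, SE 0.0391, adjusted p = 0.19). PSPH, the phosphatase that releases serine, had 47.96 and 49.9 CPM in shNC and 47.1 and 52.6 CPM in shMETTL14, and its groups overlapped (log2 fold change 0.03, SE 0.0656, adjusted p = 0.77). A copy of PSPH, the pseudogene PSPHP1, had 85, 107, 121 and 135 counts in the same order of libraries, so reads that fit both may have been split or dropped.

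SHMT2, which turns serine into glycine and a one-carbon unit in mitochondria, had 261 and 266 CPM in shNC and 257 and 255 CPM in shMETTL14. MTHFD2, the mitochondrial folate enzyme that oxidises this unit, had 381 and 399 CPM in shNC and 378 and 379 CPM in shMETTL14. In both genes the knockdown libraries were lower by less than the test could call, with log2 fold changes of -0.04, SE 0.0392, adjusted p = 0.4 for SHMT2 and -0.04, SE 0.039, adjusted p = 0.35 for MTHFD2. MTHFD2 shares 27.2% of its exon bases with SLC4A5, the larger of its overlaps, and SHMT2 overlaps NDUFA4L2 on the other strand, a gene that fell from 297 and 322 counts to 33 and 22 counts. The strand setting of the counting is not given in the sources used here.

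The other amino acid enzymes were the role with the lowest median, -0.36, with 4 genes (57.1%) lower, 2 (28.6%) higher and 1 not called. The shares over all genes were 25.3% lower and 27.2% higher. ASNS (ENSG00000070669, chr7:97852118-97872542, minus strand), which makes asparagine from aspartate and glutamine, had 20.3 and 20.5 CPM in shNC and 10.6 and 9.40 CPM in shMETTL14. Its counts were 405 and 393 in shNC against 208 and 181 in shMETTL14, so both knockdown libraries lay near 49.0% of the control mean (log2 fold change -1.03, SE 0.104, adjusted p = 3.4e-08). Of its exon bases, 44.6% are shared on the same strand with AC079781.5, a gene that had 9, 15, 22 and 7 counts, and whether reads of ASNS were counted there as ambiguous was not tested.

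PCK2, the mitochondrial enzyme that makes phosphoenolpyruvate, had 139 and 148 CPM in shNC and 109 and 109 CPM in shMETTL14, and both knockdown libraries were lower (log2 fold change -0.39, SE 0.0457, adjusted p = 2.5e-07). GPT2, the mitochondrial alanine transaminase, had 165 and 164 CPM in shNC and 129 and 127 CPM in shMETTL14 and moved by nearly the same amount (log2 fold change -0.36, SE 0.0423, adjusted p = 2.7e-07). CBS, which joins homocysteine and serine to cystathionine, had 114 and 93.6 CPM in shNC and 86.4 and 75.7 CPM in shMETTL14. Its shNC libraries lay apart, although both were above both knockdown libraries, and its call (log2 fold change -0.36, SE 0.0705, adjusted p = 0.00019) was lost in DESeq2 (adjusted p = 0.076) and in edgeR's robust fit (0.11). Without shNC replicate 1 its log2 fold change was -0.21 and without shNC replicate 2 it was -0.49, both still called, and a near-identical copy, CBSL, had 27, 41, 23 and 38 counts.

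CTH, which cleaves cystathionine to cysteine and so follows CBS in the same route, went the other way. It had 12.8 and 15.2 CPM in shNC and 21.96 and 17.98 CPM in shMETTL14, and both knockdown libraries were above both controls (log2 fold change 0.51, SE 0.112, adjusted p = 0.00053). ALDH18A1, the enzyme of the entry step of proline synthesis, had 137 and 142 CPM in shNC and 173 and 174 CPM in shMETTL14 and rose as well (log2 fold change 0.31, SE 0.0426, adjusted p = 2.3e-06). PYCR1, which completes proline in mitochondria, had 239 and 237 CPM in shNC and 256 and 246 CPM in shMETTL14. Its knockdown libraries were higher but not called (log2 fold change 0.08, SE 0.0403, adjusted p = 0.11). PYCR1 shares 15.6% of its exon bases with AC145207.4 on the other strand, the larger of its overlaps.

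The amino acid transporters lay on the lower side without exception: 6 of 6 had a log2 fold change below 0, and 4 (66.7%) were called. Over all genes, 50.1% lay below 0 and 25.3% were called lower. SLC7A1, a transporter of arginine and lysine, had 124 and 114 CPM in shNC and 85.1 and 87.7 CPM in shMETTL14, the largest shift of the group (log2 fold change -0.46, SE 0.0492, adjusted p = 6.1e-08), and carries the response element 7 bases after its start. SLC7A5, the light chain of the exchanger for leucine and other large neutral amino acids, had 403 and 378 CPM in shNC and 328 and 323 CPM in shMETTL14 (log2 fold change -0.26, SE 0.0406, adjusted p = 1.2e-05). SLC3A2, the heavy chain that holds it at the membrane, had 197 and 206 CPM in shNC and 185 and 192 CPM in shMETTL14. It was lower in both knockdown libraries but not called (log2 fold change -0.09, SE 0.0421, adjusted p = 0.068), and was called with the replicate block and in 4 other alternatives.

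SLC38A2, a sodium-coupled carrier of small neutral amino acids, had 467 and 480.2 CPM in shNC and 415 and 414 CPM in shMETTL14, with groups that did not overlap (log2 fold change -0.19, SE 0.0378, adjusted p = 0.0002). SLC1A5, the main glutamine exchanger, had 146 and 148 CPM in shNC and 128 and 134 CPM in shMETTL14. Its call (log2 fold change -0.17, SE 0.0435, adjusted p = 0.0029) was lost without shMETTL14 replicate 1, with an adjusted p = 0.071, and it shares 23.4% of its exon bases with AC008622.2, the larger of its overlaps. SLC1A4, a carrier of alanine and serine, had 51.2 and 45.5 CPM in shNC and 43.3 and 44.7 CPM in shMETTL14 and was not called (log2 fold change -0.14, SE 0.068, adjusted p = 0.098). Besides the scalings named above, leaving out shNC replicate 2 made it a call, with a log2 fold change of -0.21 (adjusted p = 0.021), whereas without shNC replicate 1 the value was -0.053 (adjusted p = 0.61). XPOT, the factor that exports tRNA from the nucleus, had 396 and 395 CPM in shNC and 375 and 378 CPM in shMETTL14 and was not called (log2 fold change -0.07, SE 0.0377, adjusted p = 0.13).

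**Figure D3:**
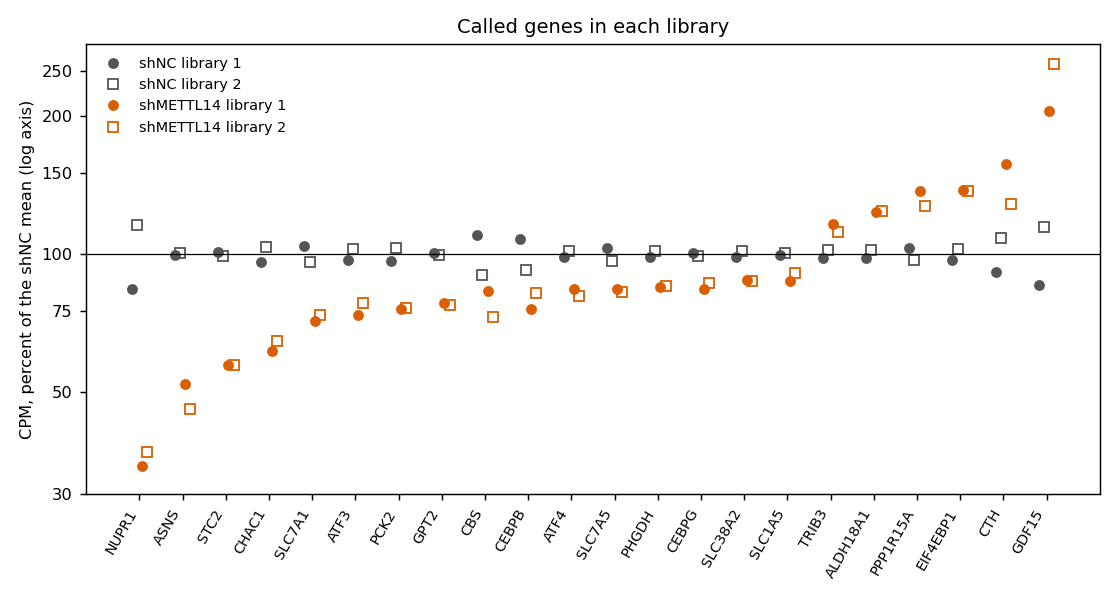
Level of each of the 22 called genes in each of the 4 libraries, in CPM as a percent of the shNC mean (log axis), ordered by fold change. Both shMETTL14 libraries lie on the same side of both shNC libraries for every gene shown, and the shNC libraries of NUPR1, CBS and GDF15 lie visibly apart.

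Related genes from 10 further lists were read with the same fit, and of their 150 genes 134 passed the filter, of which 50 (37.3%) were called higher and 39 (29.1%) lower, where the shares over all genes were 27.2% and 25.3%. Among 11 further ATF4 targets, 10 were tested, with 4 (40%) higher, 5 (50%) lower and a median log2 fold change of -0.13. SLC7A11, the cystine transporter, had 251 and 259 CPM in shNC and 97.96 and 104 CPM in shMETTL14 (log2 fold change -1.33, SE 0.0446, adjusted p = 5e-16). DDIT4, an inhibitor of mTORC1, had 524 and 532 CPM in shNC and 180.4 and 182 CPM in shMETTL14 (log2 fold change -1.54, SE 0.0394, adjusted p = 1.2e-17), and 41.2% of its exon bases are shared with DDIT4-AS1, an antisense gene. LONP1, a mitochondrial protease, had a log2 fold change of 0.36, and WIPI1, an autophagy protein, one of 1.43. WIPI1 had 69 and 51 counts in shNC and 172 and 150 counts in shMETTL14. It shares 24.3% of its exon bases with ARSG on the other strand, the larger of its overlaps.

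Upstream of ATF4, 15 regulators of eIF2 gave 7 higher (46.7%) and 3 lower (20%) calls with a median of 0.04 (log2). The shares over all genes were 27.2% and 25.3%. EIF2B1 and EIF2B2, subunits of the exchange factor that reloads eIF2, had log2 fold changes of 0.38 and 0.49. IMPACT, an inhibitor of GCN2, had one of -0.26 and DELE1, which relays mitochondrial stress, one of -0.31. Of the other eIF2 kinases, EIF2AK2 was called, at 0.11 (adjusted p = 0.039), and EIF2AK1 was not, at 0.04. Among 13 tested bZIP factors outside the 37 genes, 3 (23.1%) were higher and 6 (46.2%) lower, with a median log2 fold change of -0.05. CREB3L4 had the lowest log2 fold change of those named by the rule, -0.81, and NFE2L2 had 0.27.

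The amino acid lists gave calls in both directions, beside 27.2% higher and 25.3% lower over all genes. Of 20 cytosolic aminoacyl-tRNA synthetases, 6 (30%) were higher and 6 (30%) lower, near the shares over all genes. Their median log2 fold change was -0.04, from QARS1 at -0.38 to HARS1 at 0.56. Of 12 tested one-carbon and glycine enzymes outside the 37 genes, 3 (25%) were higher and 1 (8.3%) lower (median 0.13). MTHFD2L, a relative of MTHFD2, lay at 0.56 and ALDH1L2 at -0.34. Of 14 tested enzymes of glutamate, aspartate, proline and branched-chain amino acids, 7 (50%) were higher and 5 (35.7%) lower (median -0.0048). ASS1 and ASL, which act in sequence in arginine synthesis, lay at -0.35 and 0.77, although ASL shares 17.6% of its exon bases with AC068533.4. Of 15 other tested transporters, 3 (20%) were higher and 5 (33.3%) lower (median -0.01). SLC1A3, a glutamate carrier, lay at -0.82 and SLC6A9, a glycine carrier, at -0.81. SLC43A2 and SLC6A15 were called higher, at 0.89 and 0.16.

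Of 9 tested methionine and sulfur enzymes, 2 (22.2%) were higher and 3 (33.3%) lower (median log2 fold change 0.11). CDO1, which oxidises cysteine and stands downstream of CTH, had 1.05 and 1.36 CPM in shNC and 5.62 and 6.24 CPM in shMETTL14. Its log2 fold change was 2.29, whereas MAT2A and MTR were called lower, at -0.31 and -0.22. Of 11 tested mTORC1 and sestrin relatives, 4 (36.4%) were higher and 2 (18.2%) lower (median 0.23). SESN3, a sestrin like SESN2, lay at -0.87 and EIF4EBP2, the closest relative of EIF4EBP1, at 0.43. The ATF6 and XBP1 arm of the unfolded protein response, which runs beside the eIF2 arm from the same organelle, gave more higher than lower calls: of 16 genes, 11 (68.8%) were higher and 3 (18.8%) lower, where 27.2% and 25.3% of all genes were, with a median log2 fold change of 0.61 beside -0.14. SDF2L1 had 11.8 and 11.4 CPM in shNC and 37.4 and 36.8 CPM in shMETTL14 (log2 fold change 1.68) and MANF, a secreted stress protein, had 48.8 and 51.2 CPM in shNC and 116 and 116 CPM in shMETTL14 (log2 fold change 1.21). HERPUD1 and ERN1 lay on the other side of 0, with -0.48 and -0.39. These lists and the 37 genes share the same libraries, and the difference between their medians was not tested.

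**Figure D4:**
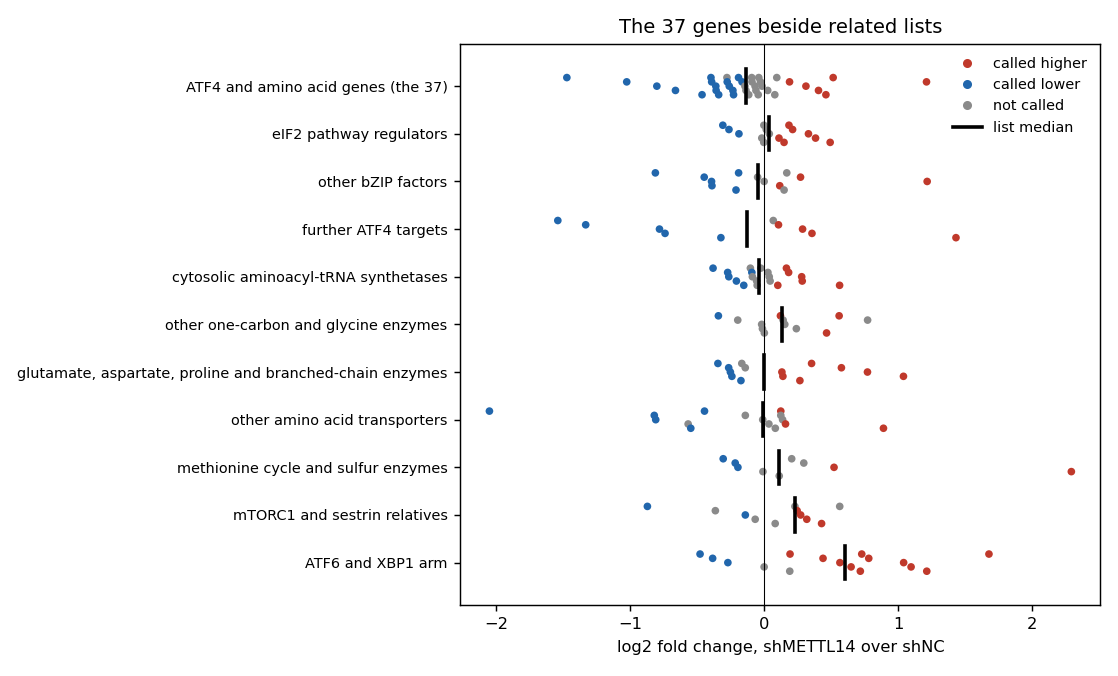
Log2 fold change of shMETTL14 over shNC (horizontal axis) for each tested gene, 1 point per gene, in the 37 genes and in the 10 related lists, with colour for the call and a bar at each list's median. The median of the 37 genes lies at -0.14 and that of the ATF6 and XBP1 arm at 0.61.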

How the data were processed

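The authors deposited 1 table of raw counts per Ensembl gene ID for the 4 libraries, without normalization. The submitters' processing notes name HISAT2 2.1.0, StringTie 1.3.6, HTSeq 0.13.5, edgeR and GRCh38 (hg38), with no role or order. The annotation release and the strand setting are not given in the sources used here. Lines that name no gene held 19.1% to 19.9% of counts, of which ambiguous reads were 5.01% to 5.32% of all counts, and were left out. Counts of the 2 shMETTL14 libraries were compared with those of the 2 shNC libraries in edgeR 4.0.16 (R 4.3.3): TMM scaling, filterByExpr (minimum count 10, minimum total 15) and the quasi-likelihood F-test with Benjamini-Hochberg adjustment over 16309 genes, with the group as the only term. The biological coefficient of variation was 3.45%. An exact permutation of 2 against 2 libraries cannot give a two-sided p below 0.333, so no permutation p is printed. The SE is the absolute log2 fold change divided by the square root of F, and RPKM divides CPM by the merged exon length in GENCODE 29. The scripts were tested on simulated data.

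The 37 genes, their roles, the 10 related lists and the motifs were chosen with earlier results of these data known. From each related list, up to 2 called genes with the largest rise and up to 2 with the largest fall could be named, if groups did not overlap and the mean log2 CPM reached 1, and EIF2AK1, EIF2AK2, CEBPA and CEBPD were always named. Alternatives were other scalings (RLE, upper quartile, library size alone), other filters (none, or at least 10 counts in every library), DESeq2 1.42.0, a robust fit, the replicate number as a block, leaving out each library, and a 1.5-fold limit.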

Additional observations from a re-analysis of the deposited data

How the results depend on the processing

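No called gene among the 37 changed sign in any alternative run, and between 19 (DESeq2) and 29 (upper quartile scaling) of the 37 genes were called. Under upper quartile scaling 5 were higher and 24 lower, with library size alone 5 and 22, and in DESeq2 4 and 15. In the same order, 30.4%, 28.6% and 17.1% of all genes were called lower, beside 25.3% in the main run. The shares called in either direction were 52.2%, 52.0% and 36.9%, beside 52.5%. Over all genes DESeq2 called 6022 where edgeR called 8561. The median log2 fold change of the 37 genes was -0.20 with upper quartile scaling and -0.18 with library size alone, and ranged from -0.15 to -0.11 when 1 library was left out. The number of genes with at least 2-fold change ranged from 1 (without shMETTL14 replicate 2) to 3 when 1 library was left out, and was 5 at a limit of 1.5-fold. With the replicate block, 23 of the 37 genes were called (6 higher and 17 lower, with SLC3A2 added) and 8926 of all genes, although the libraries share only a number. Over 16309 genes, the log2 CPM difference between replicates 1 and 2 in shNC had a Pearson's r of -0.0018 with that in shMETTL14. Some genes that were not called changed sign: PSPH had a log2 fold change of -0.042 with upper quartile scaling and -0.019 with library size alone, and EIF2AK1 had -0.030 and -0.0073. When 1 library was left out, the log2 fold change of EIF2AK3 ranged from -0.033 to 0.013, that of DDIT3 from -0.21 to 0.036, that of SESN2 from -0.082 to 0.036, that of PSPH from -0.047 to 0.11 and that of CEBPD from -0.19 to 0.58. The causes of these changes were not tested. Depth limits GDF15 and NUPR1 most, with under 200 counts in each library, and 2 libraries a group limit every SE.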
